A study of Homo sapiens with 8 samples.

Results

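HP1a was mapped by ChIP-seq in MCF10A cells with HP1b knocked down, and HP1b in MCF10A cells with HP1a knocked down, so that each protein was located in cells depleted of the other. All broad peaks on chromosomes 1 to 22 of these 4 libraries were taken, 399276 of the 1157865 peaks listed over the 8 libraries of the series. The HP1a lists held 18658 and 18071 of them and the HP1b lists 149432 and 213115. MCF10A is an immortalised, non-tumorigenic epithelial line from the human mammary gland. The other 4 libraries, HP1a ChIP and HP1b ChIP in untreated wild-type MCF10A with 2 replicates each, are given as the background. The labels name the genotype of the depleted cells only as HP1A or HP1B knock-down. How the genes were depleted, which antibodies were used and whether there was a control construct or an input library is not given in the sources used here. Peak lists carry no expression values, so the knockdowns themselves were not checked. The 2 knockdown groups differ both in the protein precipitated and in the gene depleted, which cannot be told apart within these 4 libraries. Replicates are not stated to be separate cultures, so the spread between them may be technical.

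HP1 proteins are small chromatin proteins that bind histone H3 methylated on lysine 9 through a chromodomain and dimerise through a chromoshadow domain. HP1a (HP1α) is the product of CBX5, HP1b (HP1β) of CBX1, and another member, HP1γ, comes from CBX3. They are known for pericentromeric heterochromatin and for the clustered zinc finger genes, whose 3′ exons carry methylated lysine 9 in many cell types, and they can form homodimers and heterodimers.

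The promoter windows listed by the HP1a antibody without HP1b are shown first, because they differ in sequence from those listed by HP1b without HP1a. The windows are RefSeq promoters on GRCh38.p14, 250 bases before to 50 after an annotated start, 33725 in all. A window counted as listed if a peak overlapped it by at least 1 base. Exactly 1 window was listed in all 4 libraries, that of PRSS38, a serine protease gene. Another 4 were listed in both HP1a and in neither HP1b library, and they belong to CDKL3, a cyclin-dependent kinase-like gene, to RNASEK-C17orf49, a readthrough of the ribonuclease gene RNASEK, to the divergent ALOX12-AS1, and to LOC124902304. The 250 bases before each start are printed 5′ to 3′ on the gene's own strand. Capitals mark the palindrome CACGTG, known as the E-box of basic helix-loop-helix factors. These 4 windows were chosen after their values were seen.
PRSS38 (chr1:227815425-227815674, plus strand): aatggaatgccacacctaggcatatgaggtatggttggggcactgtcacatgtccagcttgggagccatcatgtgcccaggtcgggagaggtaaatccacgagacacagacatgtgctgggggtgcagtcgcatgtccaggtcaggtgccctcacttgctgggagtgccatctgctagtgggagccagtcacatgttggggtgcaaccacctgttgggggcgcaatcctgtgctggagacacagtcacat
CDKL3 (chr5:134371044-134371293, minus strand): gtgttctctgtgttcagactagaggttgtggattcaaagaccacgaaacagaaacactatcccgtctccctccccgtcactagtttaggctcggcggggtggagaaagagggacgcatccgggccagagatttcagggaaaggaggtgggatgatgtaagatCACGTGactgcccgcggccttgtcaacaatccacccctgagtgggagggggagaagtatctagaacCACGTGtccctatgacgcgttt
RNASEK-C17orf49 (chr17:7012167-7012416, plus strand): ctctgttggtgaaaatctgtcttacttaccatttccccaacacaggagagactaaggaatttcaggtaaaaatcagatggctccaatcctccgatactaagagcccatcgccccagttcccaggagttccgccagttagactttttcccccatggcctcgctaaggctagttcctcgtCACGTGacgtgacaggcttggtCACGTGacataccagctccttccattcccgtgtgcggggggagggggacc
ALOX12-AS1 (chr17:7012335-7012584, minus strand): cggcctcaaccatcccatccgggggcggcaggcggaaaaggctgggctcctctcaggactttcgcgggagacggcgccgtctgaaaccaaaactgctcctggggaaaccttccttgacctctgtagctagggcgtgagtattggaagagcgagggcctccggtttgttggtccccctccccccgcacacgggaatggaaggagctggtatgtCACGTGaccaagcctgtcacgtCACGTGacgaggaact
LOC124902304 (chr9:135352519-135352768, minus strand): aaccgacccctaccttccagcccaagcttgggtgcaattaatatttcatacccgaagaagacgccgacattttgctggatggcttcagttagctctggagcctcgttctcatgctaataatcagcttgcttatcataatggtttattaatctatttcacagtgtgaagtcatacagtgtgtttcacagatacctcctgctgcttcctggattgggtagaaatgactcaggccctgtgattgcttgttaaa

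The letters CACGTG occurred in 3 of the 4 windows listed by HP1a alone, and each of those 3 also held the longer palindrome TCACGTGA. The RNASEK-C17orf49 and ALOX12-AS1 windows overlap and carry the same pair of copies on opposite strands. The peak over them had a deposited fold enrichment of 4.21 and 4.93 in the HP1a libraries, and the CDKL3 peak 4.16 and 4.80. LOC124902304 had 3.45 and 3.41 and neither palindrome. The PRSS38 window had folds of 3.26 and 3.50 in the HP1a libraries, 3.07 and 3.30 in the HP1b libraries, 3.46 in wild-type HP1b replicate 1 and no CACGTG. Whether these windows would be listed in an input library or with another antibody against HP1a was not tested.

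Over all windows listed by a library, CACGTG was found in 29 of 138 (21.0%) and 27 of 144 (18.8%) for HP1a without HP1b. It was found in 38 of 846 (4.49%) and 83 of 1581 (5.25%) for HP1b without HP1a. The share over all 33725 windows was 7.18%, so both HP1a libraries stood above it and both HP1b libraries below it. In the wild-type lists the shares were 4.25 and 3.67% for HP1a and 5.42 and 5.12% for HP1b. CACGTG contains a CG, and the windows differed in base content, for which the shares were not adjusted. The median count of CG per window was 7 and 6.5 for HP1a without HP1b and 4 and 5 for HP1b without HP1a. Over all windows it was 14. Whether base content accounts for the motif shares was not tested. TCACGTGA, which contains CACGTG, was held by 10.1 and 9.72% of the HP1a windows, 0.355 and 0.380% of the HP1b windows and 0.943% of all windows. Both motifs read the same on either strand, so each window was searched once. Windows of alternative and divergent starts can share a peak, so these shares count windows and not separate peaks. The groups did not overlap, with an exact two-sided permutation p of 0.333 for the CACGTG share, the smallest that 2 libraries against 2 can give. Requiring a −log10 p of at least 4 of every peak gave 21.8 and 26.6% against 3.68 and 3.87%. Taking the 18071 strongest peaks of each library gave 20.6 and 18.8% against 3.64 and 3.19%. With these equal numbers TCACGTGA was held by 10.3 and 9.72% of the HP1a and by 1.82 and 3.19% of the HP1b windows (1 of 55 and 3 of 94), so HP1b then stood above the share of all windows. The motif was searched after the printed windows had been seen, and a match is a description of letters and not a binding site.

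The windows with TCACGTGA and an HP1a peak numbered 25 and belonged to 18 genes, since alternative and divergent starts share a peak. Only 3 of the 25 were listed in both HP1a libraries, and none had a peak in an HP1b knockdown library or in wild type. Of all windows, 2.51 and 4.69% had a peak in those HP1b libraries and 2.02 to 5.39% in the wild-type ones, so few of 25 would be listed at those shares in any case. They included CLN3, a lysosomal membrane protein gene mutated in Batten disease (fold 3.14 in replicate 1), and PLD3, a lysosomal nuclease gene (4.46 in replicate 1). PICALM, a clathrin assembly gene, had 3.40 and ZFYVE26, a gene of the endolysosomal system, 3.98, both in replicate 2. CDK7, the kinase of transcription factor TFIIH, had 3.33 in replicate 1, and SGO1, the centromere cohesion protector, 4.98 in replicate 2. FNDC3A had a fold of 8.10 in replicate 2, near the highest fold of that list, 8.24. Besides the genes printed above, the rest of the 18 were TADA1, ZBED6, ZC3H11A, RAD9A, C19orf47, DCTN4, ZNF292 and UBAP2. Whether the 18 genes share a function was not tested. The genes described first were likewise picked after the values were seen, and they do not stand for the 18. The 50 strongest peaks by −log10 p of each list were also taken after the values were seen. Of those 50, 2 and 8 lay on a promoter window in the HP1a libraries, 2 and 7 of them on a window with CACGTG, while none of the HP1b peaks did. Wild-type HP1a replicate 2 also had 2 of its 50 on a promoter window, both with CACGTG, the same numbers as HP1a replicate 1 without HP1b. Wild-type HP1a replicate 1 had 0, and the wild-type HP1b libraries had 1 and 1, none with CACGTG.

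The remaining HP1b covered far more of the genome than the remaining HP1a. HP1a peaks covered 9.41 and 9.18 Mb without HP1b, and HP1b peaks 111 and 156 Mb without HP1a. These are 0.324% ± 0.00564 and 4.65% ± 1.10 of the 2873.2 Mb examined (SD, n = 2 each). HP1b coverage was 14.4-fold higher and its peaks 9.87-fold more numerous, with an exact two-sided permutation p of 0.333 for both. In wild type HP1a covered 66.5 and 57.3 Mb and HP1b 149 and 149 Mb. The weakest peak listed differed between the groups, with a lowest −log10 p of 3.43 and 3.43 for HP1a and 2.72 and 2.57 for HP1b. With a −log10 p of at least 4 required, HP1b had 4.75-fold more peaks and 7.76-fold more covered bases. Read depth is unknown, so places without a listed peak cannot be called unoccupied.

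HP1b peaks were also wider and of lower fold. Median widths were 447 and 451 bases for HP1a and 573 and 554 for HP1b, and median folds were 3.37 and 3.32 against 2.79 and 2.79. Peaks of 4 kb or more numbered 1 and 2 for HP1a and 789 and 1401 for HP1b, against 46 and 37 and 490 and 444 in wild type. The widest HP1a peak, 6100 bases in replicate 1 at chr8:142186491-142192590, lay near TSNARE1, a SNARE domain gene. In replicate 1 the widest HP1b peak, 18740 bases, lay within COL22A1, the collagen XXII gene. In replicate 2 it was a 204265-base stretch at chr22:11976801-12181065, with the nearest protein-coding gene, OR11H1, 3347126 bases away.

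Where HP1a remained without HP1b, HP1b without HP1a covered 7.82 to 8.82 times the share of bases that it covered over the genome. HP1b peaks met 38.9 to 51.9% of HP1a peaks over the 4 pairs of libraries and held 37.8% of HP1a peak bases on average. The same HP1a peaks were met by wild-type HP1a in 16.6 to 19.3% of cases (5.24 to 5.81 times its genome share by bases) and by wild-type HP1b in 35.4 to 38.8% (4.94 to 5.64 times). So HP1a peaks without HP1b lay closer to the HP1b of the opposite knockdown than to wild-type HP1a or HP1b on this measure. The 2 HP1a replicates met each other in 6.31 and 6.51% of peaks, 12.4 times the genome share. In the opposite direction HP1a met 4.22 to 4.91% of HP1b peaks. With the 18071 strongest peaks of each library, HP1b met 6.41 to 7.24% of HP1a peaks, close to the 6.42 and 6.41% met by the other HP1a replicate, while the HP1b replicates met 14.0 and 14.2% of each other.

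**Figure D1:**
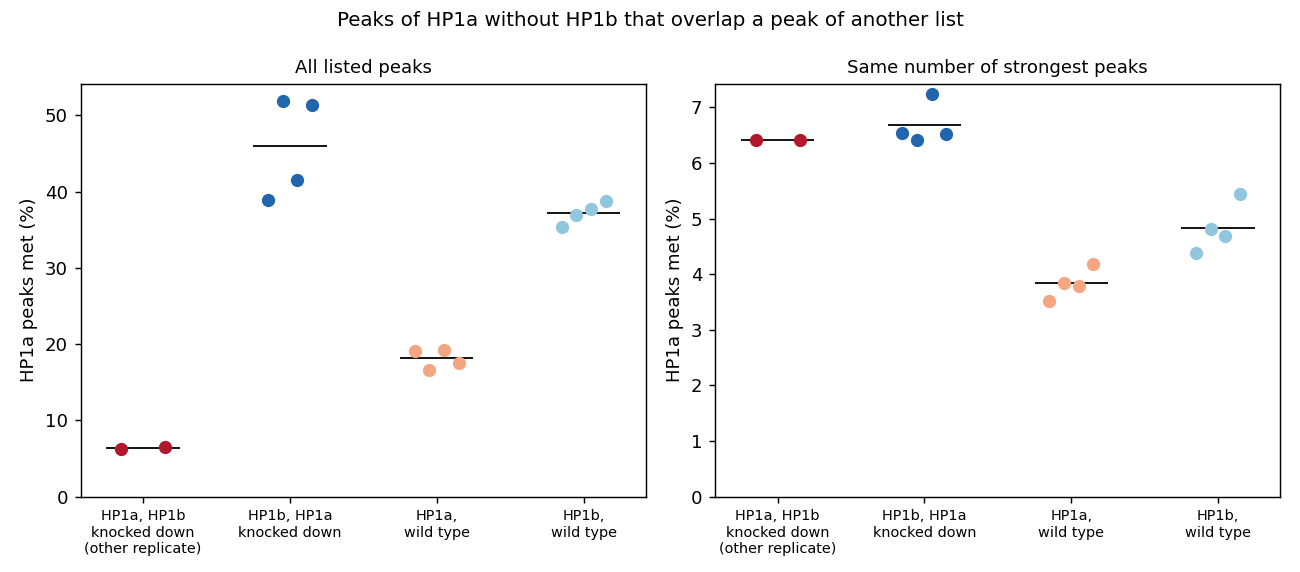
Percent of HP1a peaks without HP1b that overlapped a peak of another library by at least 1 base, for all listed peaks (left) and for the 18071 strongest peaks of each library (right). Points are pairs of libraries and lines their means; on the left HP1b without HP1a met 38.9 to 51.9%, and on the right its pairs, 6.41 to 7.24%, stood above the wild-type ones, 3.52 to 5.44%.

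Regions held in both replicates gave 1167 HP1a and 67905 HP1b regions, stretches where peaks of both libraries of a group overlap. HP1b regions met 912 of the 1167 HP1a regions, or 78.1% (95% Wilson interval 75.7 to 80.4, for the counting of regions only), while covering 3.61% of the genome. Wild-type HP1a regions met 23.5% of the 1167. In turn, 883 of the 67905 HP1b regions (1.3%) were met by an HP1a region. The share met rose with the fold of the HP1a region, from 70.9% in the lowest of 5 equal groups to 86.3% in the highest, and for HP1b regions from 0.471 to 2.96%. HP1b regions met by HP1a had a median width of 2838 bases and the others 1178. An overlap of 1 base was enough, so wider regions are more readily met. Median width was also larger in the highest than in the lowest of the 5 groups. It was 1455 against 975 bases for HP1b and 929 against 816 for HP1a regions, and the shares met were not adjusted for it. The 78.1% depends on the length of the lists: it was 39.9% with a −log10 p of at least 4 and 11.3% with equal numbers of peaks. Without either HP1a library it was 39.8 and 38.0%, since all peaks of the other one then counted as regions.

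Shared regions differed from HP1a regions without an HP1b region in their wild-type state. Of the 912 shared, 8.99% had no wild-type peak of either protein, against 38.0% of the 255 others. The strongest shared region by its weakest fold, chr6:53559270-53559616, lies 14168 bases from GCLC, the catalytic subunit of glutamate-cysteine ligase, with folds of 3.89 and 4.74 for HP1a and 4.19 and 4.53 for HP1b. Others lay in CATSPERE, a sperm calcium channel gene (3.63 and 3.90, then 3.75 and 3.62), in CFAP70, a cilium gene (3.60 and 3.53, then 3.82 and 3.52), and in GALNT17, a glycosyltransferase gene (4.21 and 3.69, then 3.49 and 3.65). All 5 strongest shared regions had a peak in every wild-type library too. Of the regions with no HP1b peak at all, 106 in number, the 5 strongest had no wild-type peak. They included regions at RNASEK and CDKL3, and in SNTG2, a syntrophin gene (3.87 and 3.77), and PIP4P1, a lysosomal phosphoinositide phosphatase gene (3.74 and 5.43). The strongest HP1b region with no HP1a peak, 253 bases at chr8:106108725-106108977, had folds of 6.70 and 6.45 and lay 161200 bases from OXR1, an oxidation resistance gene. A further one lay in ZNF195, a zinc finger gene (4.64 and 4.69).

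HP1b coverage rose toward the centres of HP1a regions. At the centre it was 15.4 and 12.7 times the genome-wide coverage of its library, at 5 kb downstream 6.76 and 5.87 times and at 100 kb 4.68 and 4 times. Wild-type HP1a at the same centres reached 9.53 and 9.85 times and wild-type HP1b 8.27 and 9.09 times. In the reverse view HP1a reached 9 and 9.11 times at the centres of HP1b regions and 2.49 and 2.61 times at 100 kb. At transcription starts both proteins were below their genome average, HP1a at 0.686 and 0.785 times and HP1b at 0.460 and 0.620 times.

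**Figure D2:**
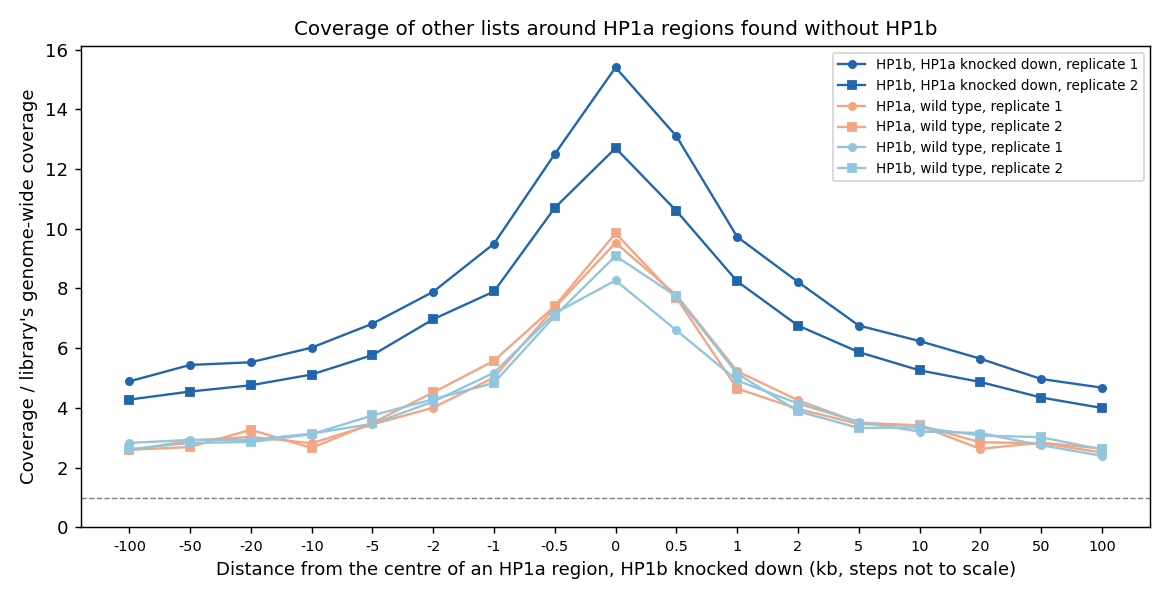
Coverage of HP1b without HP1a and of the wild-type libraries around the centres of the 1167 HP1a regions, as a multiple of each library's coverage over the genome (dashed line, 1), against distance in kb in unequal steps. Both HP1b knockdown libraries, 15.4 and 12.7 at the centre, stay above all 4 wild-type libraries at every distance shown.

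Across the 2740 bins of 1 Mb, relative coverage of the knockdown pairs correlated with Pearson r of 0.789 to 0.863 (Spearman 0.444 to 0.684) between HP1a and HP1b. HP1a without HP1b against wild-type HP1a had 0.463 to 0.511 (0.395 to 0.467). HP1b without HP1a against wild-type HP1b had 0.694 to 0.761 (0.578 to 0.736). Wild-type HP1a against wild-type HP1b had 0.772 to 0.876 (0.855 to 0.885), so by Spearman the 2 proteins were closer in wild type than in the knockdowns. Replicates of the knockdowns had 0.911 (0.646) for HP1a and 0.946 (0.811) for HP1b. With equal numbers of peaks the Pearson r of the knockdown pairs of HP1a and HP1b fell to 0.609 to 0.689. Wild-type HP1a against wild-type HP1b then had 0.778 to 0.819, and HP1a without HP1b against wild-type HP1a 0.534 to 0.553. These describe bins of shared mappability and gene content, which are not independent samples.

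HP1a held a larger share of its peak bases than HP1b on 8 of the 22 chromosomes without overlap of the groups, among them the gene-dense chromosomes 17, 19 and 22. HP1b held the larger share without overlap on chromosomes 2, 3, 4, 6, 10, 12, 13, 14, 18 and 21. With 2 libraries against 2, such separation arises in 0.333 of label orders without any difference. Chromosome 19 held 7.40 and 7.09% of HP1a peak bases without HP1b and 5.43 and 5.46% of HP1b peak bases without HP1a, on 2.04% of the examined length. The groups did not overlap, and the difference of −1.80 points (HP1b minus HP1a) had an exact permutation p of 0.333. In wild type chromosome 19 held 3.04 and 3.12% of HP1a and 4.09 and 4.21% of HP1b bases, so both proteins stood above their wild-type share in the knockdowns and their order was the opposite one. Chromosome 22 held 2.25 and 2.35% of HP1a against 1.45 and 1.84% of HP1b bases, and chromosome 17 3.54 and 3.09% against 2.15 and 2.62%. Chromosome 4, which is gene-poor, had 4.09 and 4.50% against 6.66 and 5.94%, and chromosome 13 2.48 and 2.29% against 3.31 and 3.15%. The others with more of HP1a were chromosome 8 (7.52 and 7.95% against 6.64 and 6.22%), chromosome 1 (11.2 and 10.6% against 9.3 and 9.73%), chromosome 7 (6.79 and 7.13% against 6.09 and 6.18%) and chromosomes 16 and 20. With equal numbers of peaks chromosome 19 held 7.27% of HP1a and 4.19% of HP1b bases on average.

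**Figure D3:**
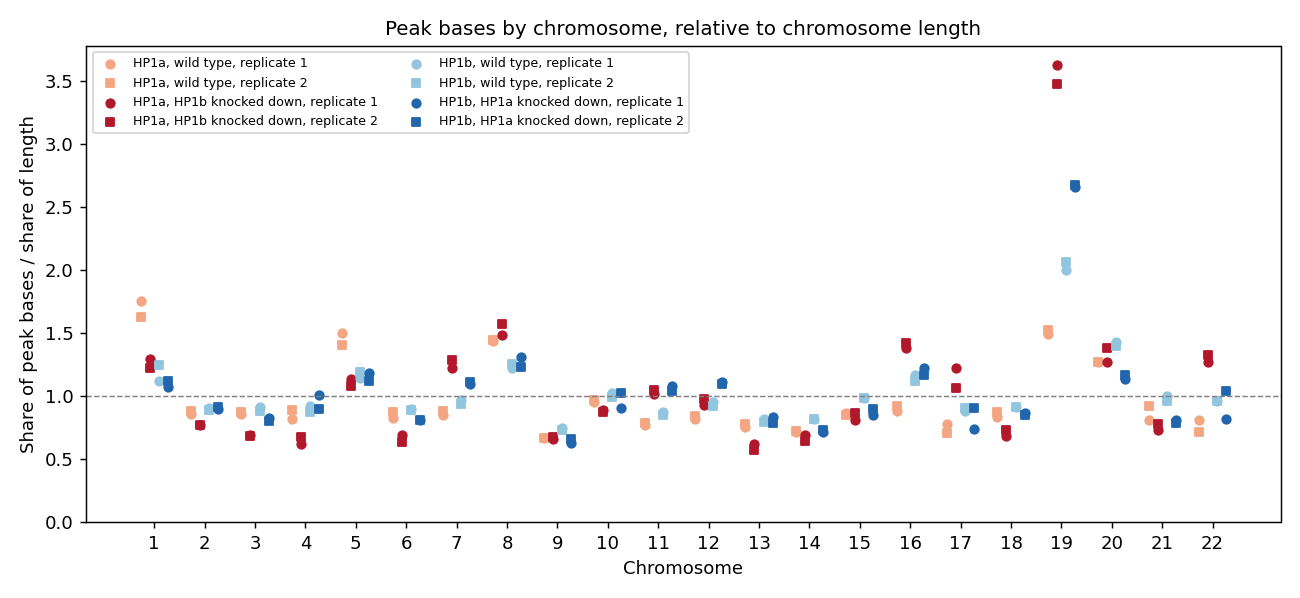
Share of a library's peak bases on each chromosome divided by the chromosome's share of the examined length, with 1 marked by the dashed line. Each point is a library; on chromosome 19 the HP1a libraries without HP1b stand highest, at a mean of 3.55, above HP1b without HP1a at 2.67, wild-type HP1b at 2.03 and wild-type HP1a at 1.51.

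The same order was seen with gene content. In bins with 16 or more genes HP1a coverage was 1.62 and 1.5 times its genome average without HP1b, and HP1b 0.850 and 1.05 times without HP1a. In bins without a protein-coding gene the values were 0.635 and 0.696 for HP1a and 1.07 and 0.854 for HP1b. Wild-type HP1a had 1.04 and 0.916 times in the gene-rich bins and wild-type HP1b 1.01 and 1.10. Gene bodies held 39.6 and 37.4% of HP1a bases and 34.1 and 36.7% of HP1b bases, both below the 42.1% of the examined length that gene bodies make up, with an exact permutation p of 0.333 for the difference of −3.14 points. The difference was −2.08 points without HP1a replicate 1 and −1.83 points without HP1b replicate 1.

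Relative coverage, the covered bases of a bin per Mb of all covered bases of its library, was then compared bin by bin with limma. Of 2733 bins HP1b was higher in 0 (0%) and HP1a in 2 (0.0732%) at an adjusted p under 0.05, and 555 bins (20.3%) had an unadjusted p under 0.05. Both bins lie at the end of the long arm of chromosome 8. In the bin from 142 to 143 Mb, with TSNARE1, the brain adhesion receptor gene ADGRB1 and the synaptic gene ARC, HP1a covered 8.07 and 8.10% and HP1b 24.7 and 38.2%. The bin took 8572.1 and 8822.2 bases per Mb of HP1a peaks and 2223.1 and 2443.8 per Mb of HP1b peaks (log2 −1.86, SE 0.21, limma adjusted p 0.0197). From 141 to 142 Mb, with PTK2, the focal adhesion kinase gene, coverage was 5.75 and 5.19% and 20.7 and 29.6% (log2 −1.60, SE 0.21, limma adjusted p 0.0343). HP1b thus covered more of both bins, while they made up a larger part of the HP1a peaks. Scaled coverage is bounded, since HP1a peaks covered 9.41 and 9.18 Mb in total and HP1b peaks 111 and 156 Mb. In the bin from 142 to 143 Mb HP1b would have had the smaller mean share even if it covered the whole bin. The direction there was thus set by the HP1a coverage and the list lengths. Without scaling both bins turned to HP1b, with log2 1.91 and 2.16. Neither bin passed with a −log10 p of at least 4 or with the filter removed.

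With equal numbers of peaks, 46 bins (1.70%) were higher for HP1b and 96 (3.55%) for HP1a of 2702. Chromosome 19 had 18 of its 57 bins among the HP1a-higher ones, chromosome 17 had 10 of 80 and chromosomes 16 and 22 had 7 each of 81 and 39. Chromosome 1 had 18 and chromosome 8 had 7 of the HP1b-higher bins. A bin of chromosome 19 from 35 to 36 Mb, with the transcription factor gene USF2 and the epithelial gene LSR, had the most negative difference (log2 −3.36, SE 0.59, limma adjusted p 0.00923). The gene-free bin from 238 to 239 Mb of chromosome 1 had log2 2.74 (SE 0.42, limma adjusted p 0.00468) in that fit. With all 8 libraries in the fit, 287 bins (10.5%) were higher for HP1b and 118 (4.32%) for HP1a. The numbers of bins called therefore depended on the lists and the spread used. Without an HP1a library they rose to 591 and 220 (replicate 1) or 613 and 281 (replicate 2), and without an HP1b library they were 0 and 4 (replicate 1) or 0 and 11 (replicate 2).

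The paralog difference was also compared with that in wild type. Of 2737 bins the HP1b minus HP1a difference was higher than in wild type in 4 (0.146%) and lower in 11 (0.402%), and 656 (24.0%) had an unadjusted p under 0.05 by limma. The highest was at 169 to 170 Mb of chromosome 5, with the guidance gene SLIT3 and the spindle gene SPDL1 (log2 2.08, SE 0.26, limma adjusted p 0.0119). HP1a covered 0.278 and 0.231% of it without HP1b and 8.80 and 6.86% in wild type, and HP1b 8.13 and 13.0% without HP1a and 8.88 and 10.5% in wild type. Of the 11, 4 lay on chromosome 19. No bin passed with equal numbers of peaks, with a −log10 p of at least 4 or without either HP1b library, where limma gave 371, 349, 370 (replicate 1) and 601 (replicate 2) bins at an unadjusted p under 0.05. Without an HP1a library 526 and 295 (replicate 1) or 556 and 325 (replicate 2) bins passed.

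Among 19122 protein-coding genes taken with 1 kb on each side, 1728 (9.04%) had a peak in all 4 knockdown libraries. Another 3230 (16.9%) had peaks in both HP1b and no HP1a library, 22 (0.115%) in both HP1a and no HP1b library, and 6889 (36%) in none. Both HP1a libraries had a peak at 1831 genes (9.58%) and both HP1b libraries at 7459 (39%). With equal numbers of peaks these became 806 (4.22%), 317 (1.66%), 515 (2.69%) and 12408 (64.9%), with both HP1a libraries at 1791 genes (9.37%) and both HP1b libraries at 1644 (8.6%). Genes with HP1a alone were thus fewer than those with HP1b alone with all peaks, and more numerous with equal numbers. The genes listed in all 4 were long, with a median of 150 kb, against 17.0 kb for those with HP1a alone and 52.1 kb for those with HP1b alone. Genes listed in none had a median of 11.2 kb. The counts per gene list below were not adjusted for gene length.

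Zinc finger genes, which encode the largest family of DNA-binding repressors, on chromosome 19 had the highest coverage of the 23 gene lists by both proteins, as the mean of 2 libraries. In HP1a replicate 1 the protocadherin list stood higher, at 2.46 against 1.95%. Of 246 C2H2 zinc finger genes on chromosome 19, 81 (32.9%) had a peak in all 4 libraries and 218 (88.6%) in both HP1b libraries. Over all protein-coding genes the shares were 9.04 and 39%. In the means below, each gene counts by its covered percent, taken over its bounds and 1 kb on each side. Their mean covered share was 1.95 and 1.81% by HP1a and 23.9 and 28.6% by HP1b, which is 6.29 and 8.43 times the mean over all genes, against 4.95 and 6.45 times for wild-type HP1a and HP1b. The median log2 difference of the 177 fitted was 0.99, against 0.01 over all 5060 genes fitted, and 0.04 against −0.03 with equal numbers of peaks. ZNF274, whose product recruits a lysine 9 methyltransferase, was covered over 8.45 and 11.9% by HP1a and 66.7 and 79.4% by HP1b. ZNF416 had 12.5 and 9.14% and 64.8 and 79.4%, and ZNF134 10.3 and 20.7% and 70.9 and 58.1%. The 251 on other chromosomes had 1.13 and 1.24% and 11.6 and 12.9% (3.95 and 3.92 times all genes). The 45 ZFP, ZSCAN and ZKSCAN genes had 1.51 and 1.48% and 14.8 and 19.7%, with ZFP2 at 4.44 and 8.77% and 51.2 and 56.6%.

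Clustered protocadherin genes, which encode cell adhesion proteins of neurons, were listed in all 4 libraries at 35 of 53 (66.0%), against 9.04% of all genes. HP1a covered 2.46 and 1.09% of them on average and HP1b 15.7 and 20.9%, 5.93 and 5.87 times all genes, while wild-type HP1a and HP1b stood at 4.51 and 2.90 times. PCDHB11 was covered over 8.13 and 3.04% by HP1a and 47.9 and 55.1% by HP1b, and PCDHGA2 over 3.32 and 2.10% and 28.0 and 33.0%. The alpha and gamma genes share their last exons, so their values are not separate. The median log2 difference was −0.42 for the 45 protocadherin genes fitted and 0.15 with equal numbers of peaks. Brain genes, a list of 25, were listed in all 4 at 14 (56.0%), against 9.04% of all genes. Their coverage stood at 3.12 and 2.94 times all genes, against 1.23 and 1.38 in wild type, with a median log2 of 0.09 (−0.43 with equal numbers). RBFOX1, a neuronal splicing factor gene, had 2.31 and 2.60% and 31.2 and 32.4%, and DPP6, a potassium channel partner, 1.63 and 1.57% and 21.6 and 27.2%. In wild type HP1b covered 19.8 and 18.8% of RBFOX1 and 7.81 and 6.56% of DPP6.

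Collagen chain genes had 31.0% (13 of 42) in all 4 libraries, against 9.04% of all genes, and stood at 2.28 and 1.75 times all genes, led by COL22A1. Potassium channel genes had 23 of 93, and olfactory receptor genes 6 of 391, with mean shares of 0.487 and 0.468% for HP1a and 4.79 and 6.76% for HP1b. Several groups had little of either protein. HOX genes had 0.0549 and 0.0322% under HP1a and 0.736 and 0.757% under HP1b, and ribosomal protein genes 0 and 0.0654% and 0.139 and 0.435%. Mesenchymal genes had 0.0578 and 0% and 0.790 and 1.23%, the cohesin, condensin and CTCF genes 0.111 and 0.00423% and 0.774 and 1.45%, and the HP1 and heterochromatin genes 0.106 and 0.0521% and 0.594 and 1.42%. Replication-dependent histone genes were listed at 0 in both HP1a libraries. HP1b covered 1.43 and 4.57% of them, against 2.25 and 3.98% over all genes. H2AC1 stood at 21.2 and 60.9%, but its flanks of 1 kb, which count here, are longer than the gene. TGF-beta and BMP pathway genes had 5 of 34 in all 4 libraries, against 9.04% of all genes, epithelial and basal genes 2 of 26, luminal breast genes 2 of 15, and keratin, interferon and liver genes 0 of 55, 22 and 13. Genes that passed in the fit of gene bodies were held by the lists of C2H2 zinc finger genes (1 of 177 fitted on chromosome 19 and 2 of 110 elsewhere), brain genes (2 of 21) and collagen genes (1 of 23), and by none of the other lists. Over all 5060 genes fitted, 9 (0.178%) passed as higher for HP1b and 10 (0.198%) for HP1a.

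**Figure D4:**
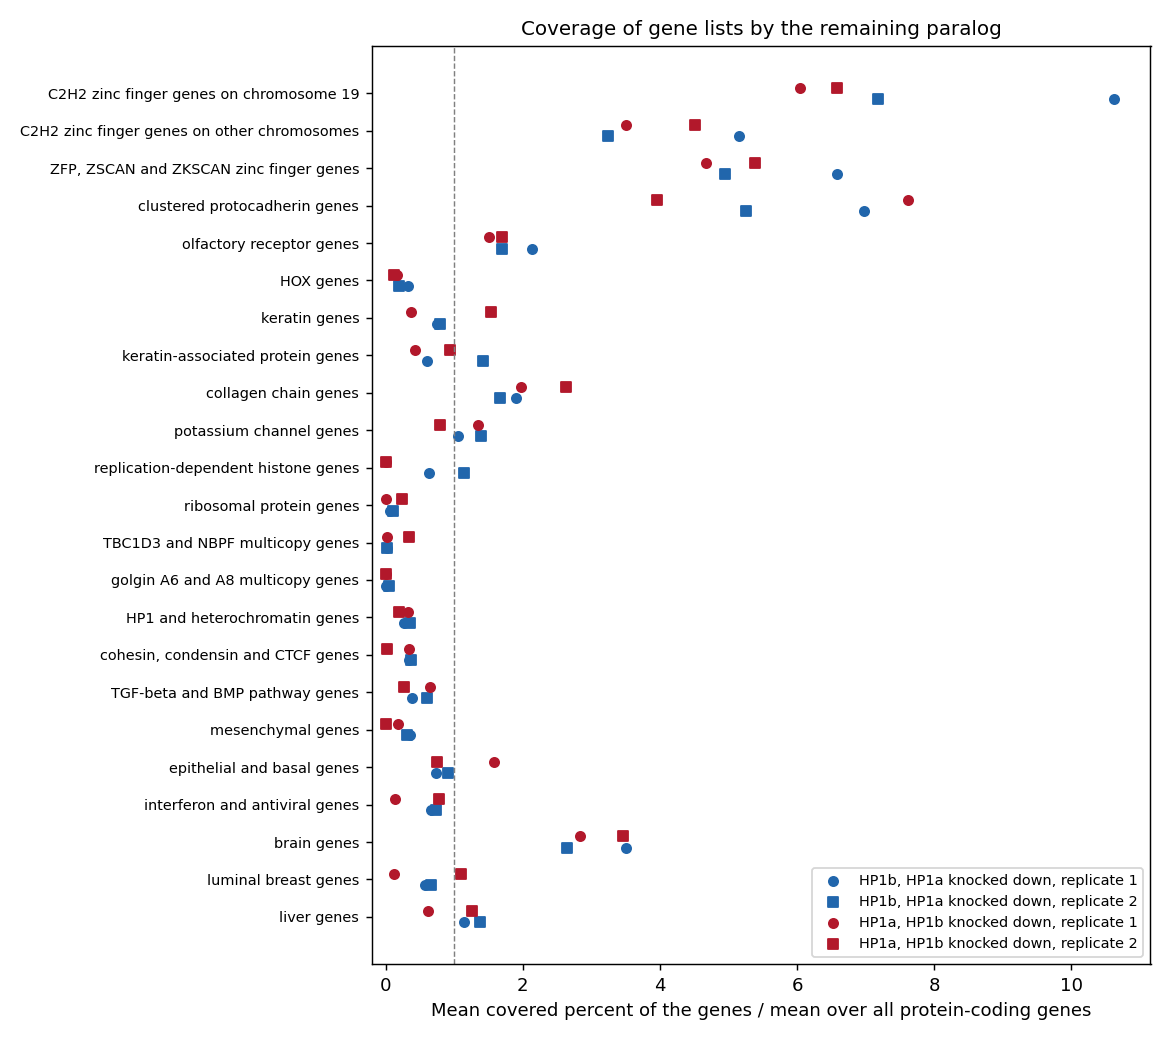
Mean covered percent of the genes of each list divided by the mean over all protein-coding genes (dashed line, 1), for each of the 4 knockdown libraries. The zinc finger, protocadherin and brain lists stand to the right of 2 in all 4 libraries and the HOX, ribosomal protein and multicopy lists to the left of 1.

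Genes of at least 5 kb were divided into 10 equal parts from start to end. Along 210 zinc finger genes of chromosome 19, HP1b was lowest at the start. Part 1 was covered over 12.5 and 20.3% by HP1b without HP1a and part 7 over 30.0 and 33.5%, against 14.0 and 15% and 36.5 and 36.6% in wild type. HP1a without HP1b had 1.20 and 1.07% in part 1 and its highest value, 3.31 and 3.21%, in part 7, with no steady rise, since replicate 1 had 0.993, 1.03 and 1.08% in parts 2, 5 and 6. In 35 protocadherin genes the order ran the other way. The alpha and gamma genes among them share their last exons, so their later parts repeat the same bases. The 35 are therefore not separate observations. HP1b without HP1a covered 33.2 and 41.8% of part 1 and 0.958 and 1.86% of part 10, while wild-type HP1b had 17.3 and 16.9% and 11.8 and 11.4%. HP1a without HP1b had 3.89 and 2.69% in part 1 and 0.913 and 0% in part 10.

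**Figure D5:**
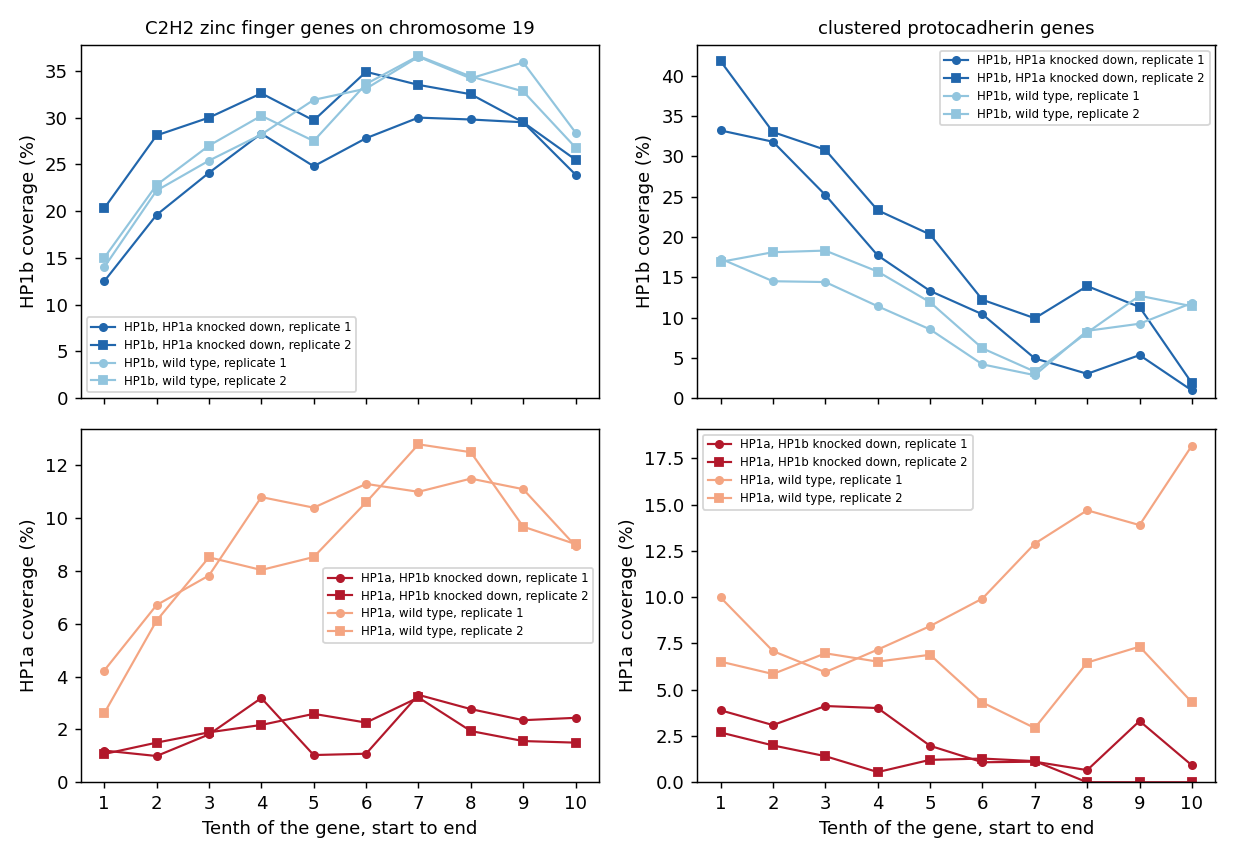
Covered percent in 10 equal parts of the gene, from start to end, for chromosome 19 zinc finger genes (left) and clustered protocadherin genes (right), with HP1b above and HP1a below on separate scales. Lines are libraries. In the protocadherin genes HP1b without HP1a falls from 33.2 and 41.8% in part 1 to 0.958 and 1.86% in part 10. Alpha and gamma protocadherin genes share their last exons, so their later parts are not separate.

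In the fit of gene bodies 9 of 5060 genes (0.178%) were higher for HP1b and 10 (0.198%) for HP1a, and 291 (5.75%) had an unadjusted p under 0.05. With equal numbers of peaks 3 (0.115%) and 7 (0.269%) of 2602 passed. PTPRD, a receptor phosphatase gene, had 0 and 0.0570% under HP1a and 2.22 and 2.52% under HP1b (log2 4.30, SE 0.78, limma adjusted p 0.000153). FHIT, a common fragile site gene, had 0.0289 and 0.0488% and 3.33 and 4.4% (log2 2.78, SE 0.58, limma adjusted p 0.00282). NRG3, a neuregulin gene, CNTNAP5, a neurexin-family gene, and PCNX2 each had no HP1a peak in one library and 0.0371, 0.187 and 0.172% in the other, with HP1b means of 2.74% ± 0.133, 3.87% ± 0.278 and 9.51% ± 2.84 (SD, n = 2). ZNF578 on chromosome 19 was covered over 43.6 and 56.3% by HP1b and 0 and 1.61% by HP1a (log2 3.72, SE 0.94, limma adjusted p 0.0293). In all 6 genes HP1a lay near 0, so the fitted log2 depends on the pseudocount. In PTPRD, FHIT, NRG3 and CNTNAP5 HP1b coverage was below that of the genome, 3.87 and 5.43%, while in PCNX2 and ZNF578 it was above. None of the 6 passed with equal numbers of peaks (limma adjusted p 0.0919 to 1).

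The HP1a-higher genes had a larger share of HP1a than of HP1b peak bases, while HP1b still covered a larger percent of them on average. CDH22, a cadherin gene, had 1.40 and 1.91% under HP1a and 1.14 and 3.68% under HP1b (log2 −3.31, SE 0.87, limma adjusted p 0.0385). GNG7, a G protein subunit gene on chromosome 19, had 2.01 and 1.47% and 1.76 and 6.58% (log2 −2.76, SE 0.63, limma adjusted p 0.00944). RBFOX3, which encodes the neuronal marker NeuN, had 0.959 and 1.21% and 2.38 and 7.81%, and it also passed with equal numbers of peaks (log2 −3.10, limma adjusted p 0.0375). HIF3A, a hypoxia factor gene, had 6.52 and 7.08% and 16.8 and 21.2%, and ARHGAP39 3.60 and 5.37% and 11.9 and 22.8%. ZNF678 had 13.1 and 14.8% and 62.6 and 52.6% (log2 −1.77, SE 0.37, limma adjusted p 0.00282), but 1.34 with equal numbers of peaks. All 6, with ZNF454 and COL22A1, which also passed, turned to HP1b without scaling. Scaled coverage is bounded in genes too, since HP1a peaks covered 9.41 and 9.18 Mb and HP1b peaks 111 and 156 Mb. In ZNF678, ZNF454 and COL22A1 HP1b would have had the smaller share even if it covered the whole gene. Their direction was thus set by the HP1a coverage and the list lengths. Without either HP1b library no gene passed (57 and 89 at an unadjusted p under 0.05), and without an HP1a library 166 and 497 (replicate 1) or 176 and 760 (replicate 2) passed for HP1b and HP1a.

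Of the 6 genes with the highest coverage in their lowest library, 3 lie side by side on chromosome 5. There the glutamate receptor gene GRM6 was covered over 15.7 and 17.7% by HP1a and 80.9 and 85.5% by HP1b, its neighbour ZNF454 over 18.3 and 15% and 80.1 and 78.3%, and ZNF879 over 13.8 and 19.8% and 42.3 and 50.9%. In wild type HP1b covered 23.2 and 27.4% of GRM6 and 37.9 and 43.5% of ZNF454. On distal chromosome 8 COL22A1 had 13.4 and 15.1% and 78.3 and 77.6%, with 42.8 and 41.8% under wild-type HP1b, and COMMD5 13.1 and 18.5% and 63.0 and 54.1%. ZNF678 on chromosome 1 completed the 6. GRM6 and ZNF454 overlap, so they share bases.

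Of the 6 strongest genes with HP1a alone, RNASEK and PIP4P1 are described above, and BTBD2, a BTB domain gene, TCN2, the transcobalamin gene, and ZMYM5 had folds of 3.34 and 3.55, 3.70 and 3.49, and 3.52 and 4.22. RNASEK and PIP4P1 had no wild-type peak, while HP1b was listed at BTBD2, TCN2 and ZMYM5 in at least 1 wild-type library. Of genes with HP1b alone, IL7R, the interleukin 7 receptor gene, had 4.72 and 6.45% covered and folds of 4.15 and 4.90, and SMAD1, a BMP signal transducer, 1.07 and 4.46% and 4.11 and 6.34. NEMP2, ANAPC10, MARCHF1 and DTWD1 were the others among the 6 strongest by fold, and all 6 had wild-type HP1a peaks in both libraries. The HP1 genes themselves carried few peaks. CBX3 was listed at 0 in all 4 knockdown libraries, CBX1 had 0.524% in HP1b replicate 2 alone, and CBX5 0.348% in HP1a replicate 1 and 1.97% in HP1b replicate 2.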

How the data were processed

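ChIP-seq peak lists of 8 MCF10A libraries were used. Per the submitters' processing notes, Trimmomatic, Bowtie2 and SAMtools were used, peaks came from MACS3, and the build was hg38. No version or setting is given in the sources used here. Each library has 1 deposited list, which gives peak positions, a score that is the whole-number part of 10 times the −log10 q, the fold enrichment as a ratio, the −log10 p and the −log10 q, all as made by the authors. They hold no counts, so depth is unknown. Peaks on chromosomes 1 to 22 were kept and overlapping peaks merged. Relative coverage was covered bases per Mb of covered bases. Fits used limma 3.58.1 in R 4.3.3 with a variance trend, on log2 values of that coverage after adding a pseudocount equal to the 10th percentile of values above 0, with Benjamini-Hochberg adjustment and a threshold of 0.05. Bins of 1 Mb were fitted if 2 or more of the 4 libraries listed a peak there (4 of 8 for the comparison with wild type), and genes with a peak in at least 1 library of each group, so no fitted gene is at 0 in a whole group. Log2 values are HP1b minus HP1a. Single values were compared with exact two-sided permutation tests. Scripts were tested on simulated data. Gene bounds and promoter windows are RefSeq, GRCh38.p14; examined length runs to the last peak or gene of a chromosome.

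Named genes followed a rule: the HP1 genes; the 6 largest differences in each direction past the threshold; the 6 most covered genes listed in all 4 libraries; the 6 strongest with one protein alone; up to 3 of each list; 4 bins per direction; 5 regions per class; and promoters listed in all 4. From these, the text names those its results turn on. Some items the rule names are not reported here. Members, lists and rule were chosen with earlier results of these data known. Alternatives were a −log10 p of at least 4, equal numbers of the strongest peaks, 50% overlap, a pseudocount multiplied by 4, a replicate block, all 8 libraries, no scaling, bins of 250 kb, other filters, no flank and each library left out. Motif alternatives were chosen after seeing the data.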

Additional observations from a re-analysis of the deposited data

Results flagged for a closer look

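The HP1b minus HP1a difference was higher than in wild type in 4 bins and lower in 11 by the limma test of the difference itself. The 4 higher were on chromosome 5 at 169 to 170 Mb (log2 2.08), chromosome 2 at 215 to 216 Mb with FN1, the fibronectin gene (1.72), chromosome 8 at 130 to 131 Mb with ADCY8, an adenylyl cyclase gene (1.53), and chromosome 11 at 90 to 91 Mb (1.5). In the FN1 bin HP1a covered 0.0598 and 0.0709% without HP1b and 2.78 and 2.98% in wild type. The 4 lowest were on chromosome 9 at 132 to 133 Mb with TSC1 (log2 −1.93) and at 135 to 136 Mb with KCNT1 (−1.93), chromosome 8 at 142 to 143 Mb (−1.81) and chromosome 19 at 2 to 3 Mb with DOT1L, a histone methyltransferase gene (−1.75). In the KCNT1 bin HP1a covered 1.43 and 1.17% without HP1b and 0.928 and 0.793% in wild type, and HP1b 3.26 and 8.50% and 3.03 and 3.23%. For the chromosome 8 bin at 142 to 143 Mb the limit of scaled coverage given above held here too. Its knockdown difference would be negative even with HP1b over the whole bin. The 8 bins passed with the pseudocount multiplied by 4 and without either HP1a library, and in none of the other 5 alternatives.

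Peaks outside chromosomes 1 to 22 were not used. They numbered 1125 and 1191 in the HP1a and 10650 and 13740 in the HP1b knockdown lists.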

How the results depend on the processing

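Differences in peak number, covered bases, chromosome 19 share and gene-body share kept their direction in all alternatives run. The promoter share, 0.409 and 0.427% of windows for HP1a and 2.51 and 4.69% for HP1b, reversed with equal numbers of peaks (−0.194 points, 0.415 against 0.221%). HP1a bases under HP1b peaks were 20.1% when a −log10 p of 4 was required and 6.22% with equal numbers; HP1a regions met were 39.9, 11.3 and, with 50% overlap, 73.0%, and 38.0 to 86.1% with a library left out.

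Bins higher for HP1b and HP1a numbered 0 and 0 with −log10 p of at least 4 (474 unadjusted), 46 and 96 with equal numbers, 287 and 118 with all 8 libraries, 2728 and 0 without scaling, 18 and 0 without the filter, 0 and 0 at 250 kb (2180 unadjusted), and 0 to 613 and 4 to 281 with a library left out. Genes numbered 0 and 0 with −log10 p of at least 4 (114 unadjusted), 3 and 7 with equal numbers, 5 and 6 with the larger pseudocount, 2 and 6 with all 8 libraries, 2558 and 0 without scaling, 2168 and 55 with a filter of 2 libraries, and 0 to 176 and 0 to 760 with a library left out. Bins differing from wild type numbered 0 and 0 when a −log10 p of 4 was required (349 unadjusted), 0 and 0 with equal numbers (371 unadjusted), 17 and 26 with the larger pseudocount, and 0 to 556 and 0 to 325 with a library left out. A lone library of a group is assumed to vary like the other group. The cause of these shifts was not tested.

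Replicate numbers are shared across groups, but 2 pairs do not establish a pairing. With a replicate block 39 and 36 bins, 1 and 0 genes, and 0 and 0 bins differing from wild type (594 unadjusted) passed.

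Reversed with equal numbers were COL22A1 (log2 0.36), ZNF454 (0.23), ZNF678 (1.34) and the difference from wild type of the chromosome 9 bin at 132 Mb (0.97). Reversed without scaling were ARHGAP39 (1.87), CDH22 (0.31), COL22A1 (2.45), GNG7 (0.94), HIF3A (1.41), RBFOX3 (1.96), ZNF454 (2.22), ZNF678 (2.03) and the chromosome 8 bins at 141 and 142 Mb (2.16 and 1.91). The median of all genes moved from 0.01 to 2.55 without scaling. Depth is unknown, so a missing peak sets no limit on occupancy.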
